A study of Arabidopsis thaliana with 6 samples.

Results

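Arabidopsis makes most of its small heat shock proteins for the cytosol, and sends a few into organelles. The 6 genes described here are the organelle-targeted ones: HSP21 (AT4G27670) for the plastid, HSP22.0 (AT4G10250) for the endoplasmic reticulum, HSP23.5 (AT5G51440), HSP23.6 (AT4G25200) and HSP26.5 (AT1G52560) for the mitochondrion, and HSP15.7 (AT5G37670) for the peroxisome. They were chosen by locus and known compartment rather than by a cut on their values, but with earlier results of these data known. Each locus was read by 1 probe set that maps to it alone, so 6 of the 22746 probe sets tested stand for the group, and 6 of 20242 genes with a probe set of their own. A probe set combines several short probes designed against one transcript into one value.

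Small heat shock proteins are chaperones built around an alpha-crystallin domain. They form oligomers that hold unfolding proteins without using ATP, until ATP-driven chaperones of the same compartment refold them. The organelle forms are encoded in the nucleus and carry a targeting signal, and in vegetative tissue of plants their transcripts are typically scarce until the temperature rises, when heat shock transcription factors bind heat shock elements in their promoters.

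Total RNA from Col-0 seedlings, a standard laboratory accession of Arabidopsis thaliana, was hybridised to Affymetrix expression arrays. Of the 6 arrays, 3 were from unheated dark seedlings (control) and 3 from seedlings that received 37 °C for 30 min in the dark (heat). All seedlings had been kept cold at 4 °C for 72 h and grown at 23 °C on solid medium in a daily cycle of 16 h light and 8 h dark. Groups treated in the light are named in the series' design text and were not analysed here. The stated age is 10 days in the design text, but the labels give 16, 17 and 18 days to control replicates 1 to 3 and 19, 20 and 21 days to heat replicates 1 to 3. Every heat array thus has an older label than every control array, and the design gives no array of one age in both groups.

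The deposited values are on a log2 scale, with array medians of 2.78 to 2.95, and give no detection call. Arrays correlated at 0.989 to 0.991 within heat, 0.976 to 0.988 within control and 0.941 to 0.954 across the groups (Pearson, all probe sets). Markers of shoot tissue were bright, with the summed linear signal of 5 genes at 8526 to 9670 on control arrays and 8215 to 8972 on heat arrays. The corresponding sums were 29.9 to 65.6 and 29.6 to 53.2 for 5 root genes, whose control means of 2.49 to 3.91 lie near the array medians. For 6 seed and embryo genes, tissues in which small heat shock proteins are also made, the sums were 24.3 to 50.9 in control and 40.6 to 54.7 after heat. None of these 16 markers passed the limma test at an adjusted p of 0.05, and 3 had an unadjusted p under 0.05. Their part in the results was not tested. In whole seedlings, a change in the number of cells of a type and a change in the RNA per cell cannot be told apart.

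All 6 organelle small heat shock protein genes rose after heat, by 6.50 to 8.50 on the log2 scale with a median of 8.01. The same limma test called 2.34% of all probe sets higher (533 of 22746) and 4% lower, and 1.72% were higher by at least 1. Without control replicate 2, 1008 probe sets were higher and 2719 lower. In 6 of 6 genes the lowest heat array lay above the highest control array, as it did for 10.4% of all probe sets. The space between them was 5.07 for HSP23.5 and up to 8.26 for HSP26.5. The median difference over all probe sets was -0.01.

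**Figure D1:**
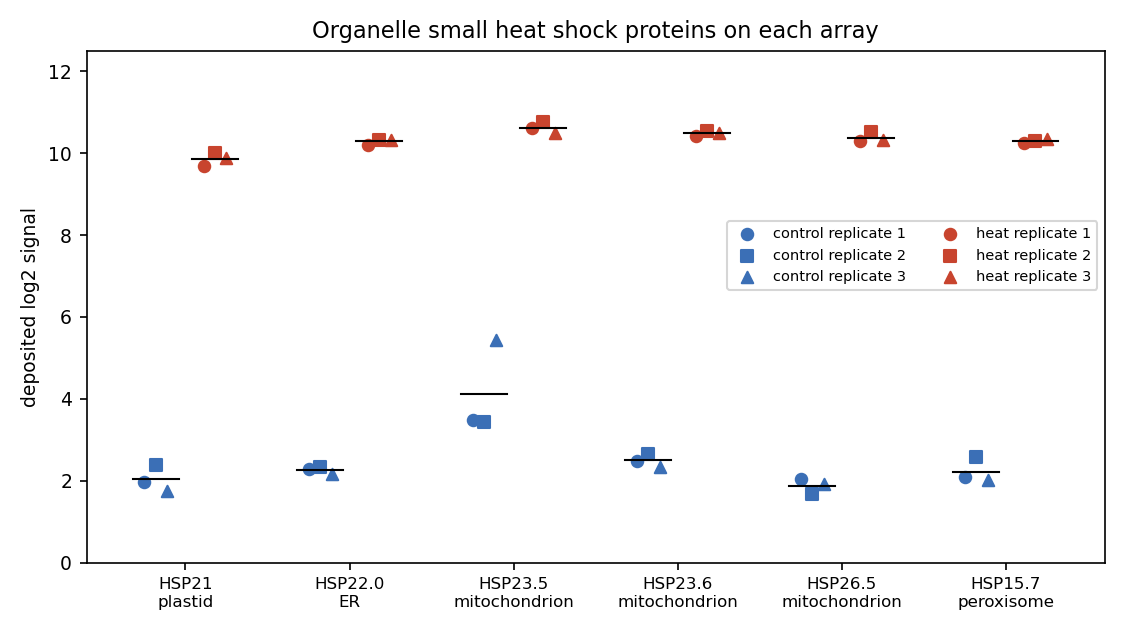
Deposited log2 value of each organelle small heat shock protein on each array, with 1 point per array and the mean of each group of 3. Heat values lie between 9.69 and 10.76, while 5 genes have every control value under 3 and HSP23.5 has 1 control array at 5.43.

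HSP21 is the small heat shock protein of the plastid, where it binds thylakoid membranes and plastid proteins under heat. It read 1.97, 2.40 and 1.75 on control replicates 1, 2 and 3 and 9.69, 10.01 and 9.87 on heat replicates 1, 2 and 3. All heat arrays were far above all control arrays, and control replicate 2 was the highest control. The group means were 2.04 ± 0.33 and 9.86 ± 0.16 (SD, n = 3 arrays per group). HSP21 thus rose by 7.82 (SE 0.18, 95% interval 7.40 to 8.24, limma adjusted p = 2.46e-07), a fold of 226 on the linear scale. That was the 15th largest rise among all probe sets.

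HSP22.0 carries a signal peptide and acts in the endoplasmic reticulum. It read 2.29, 2.33 and 2.16 on the control arrays and 10.21, 10.33 and 10.32 on the heat arrays. Both groups were tight, with means of 2.26 ± 0.09 and 10.29 ± 0.07 (SD, n = 3), and no control value came near a heat value. HSP22.0 rose by 8.03 (SE 0.11, 95% interval 7.78 to 8.28, limma adjusted p = 2.33e-08), a fold of 261.

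The mitochondrial genes did not share one control level pattern. HSP23.6, a chaperone of the mitochondrial matrix, read 2.49, 2.66 and 2.35 on the control arrays and 10.42, 10.55 and 10.50 on the heat arrays. With means of 2.50 ± 0.16 and 10.49 ± 0.06 (SD, n = 3), HSP23.6 rose by 7.99 (SE 0.12, 95% interval 7.71 to 8.27, limma adjusted p = 2.73e-08), a fold of 255. Its control arrays differed by only 0.31.

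HSP26.5, a more divergent mitochondrial member, had control values of 2.04, 1.68 and 1.92 and heat values of 10.30, 10.51 and 10.32. The means were 1.88 ± 0.18 and 10.38 ± 0.11 (SD, n = 3). By the deposited values it had the largest rise of the 6 genes at 8.50 (SE 0.13, 95% interval 8.19 to 8.80, limma adjusted p = 2.73e-08), a fold of 361 and the 6th largest among all probe sets. With values under log2 4 set to 4, the folds were 89.9 for HSP23.6 and 83.1 for HSP26.5. All control values of both genes lie under that floor. Those folds thus reflect heat levels alone and do not show which gene responded more.

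HSP23.5 differed from the other 5 genes in its controls. Its values were 3.49, 3.44 and 5.43 for control replicates 1, 2 and 3, and 10.60, 10.76 and 10.50 for the heat arrays. Control replicate 3 stood 1.94 above the higher of the other controls, yet all 3 controls stayed well below every heat array. The means were 4.12 ± 1.13 and 10.62 ± 0.13 (SD, n = 3), and the control SD was larger than that of 99.7% of all probe sets. HSP23.5 rose by 6.50 (SE 0.49, 95% interval 5.36 to 7.64, limma adjusted p = 0.00023), a fold of 90.4. Without control replicate 3 the rise was 7.15, and without control replicate 1 or 2 it was 6.18 or 6.16. With the labelled age as a covariate it was 5.13 and no longer passed (limma adjusted p = 0.125), whereas the other 5 genes still passed. Labelled age rises along with group, so that model has little power, with 129 of all probe sets called higher and 10 lower.

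HSP15.7 has a peroxisomal targeting signal and is one of the small alpha-crystallin domain proteins known in plant peroxisomes. It read 2.09, 2.57 and 2.02 on the control arrays and 10.24, 10.29 and 10.34 on the heat arrays. Heat arrays spanned 0.10 and control arrays 0.55, with control replicate 2 the highest. The means were 2.23 ± 0.30 and 10.29 ± 0.05 (SD, n = 3), so that HSP15.7 rose by 8.06 (SE 0.16, 95% interval 7.69 to 8.44, limma adjusted p = 9.96e-08), a fold of 267.

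On the control arrays the 6 genes stood between the 27.1th percentile of all probe sets (HSP26.5) and the 67.3th (HSP23.5). After heat they stood between the 99.4th and 99.8th. Without a detection call, a control value that low cannot be told from background, so the fold depends on it. With every value under log2 4 set to 4, the folds became 58.1 for HSP21, 78.2 for HSP22.0, 70.7 for HSP23.5, 89.9 for HSP23.6, 83.1 for HSP26.5 and 78.3 for HSP15.7, and all 6 genes still passed. HSP23.5, the smallest by the deposited values, then lay above HSP21, with heat means of 10.62 and 9.86 and 1 HSP23.5 control array above that floor.

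The ratios in the authors' deposited table each set 1 heat array over the control array of the same number. They match ratios computed from the same log2 values (largest relative gap 6.3e-05). They therefore show the values array by array and are no separate check. For HSP21, HSP22.0, HSP23.6, HSP26.5 and HSP15.7 the ratios in the authors' deposited table lay between 196 and 452. For HSP23.5 the authors' deposited table gives 139, 159 and 33.6, and the low one is the ratio over control replicate 3.

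The control deviations of the 6 genes fell into a common order for 4 of them. HSP21, HSP22.0, HSP23.6 and HSP15.7 each had their highest control value on replicate 2 and their lowest on replicate 3. The control values of these genes cannot be told from background. HSP26.5 was highest on replicate 1 and lowest on replicate 2, and HSP23.5 was highest on replicate 3 and lowest on replicate 2. On the heat arrays replicate 2 was the highest for 5 of 6 genes, the exception being HSP15.7. How many of all probe sets share these orders was not counted. Control replicate 2 stood at least 1 above both other controls in 136 probe sets and at least 1 below both in 205. In 6 of 6 genes the SD was smaller on the heat arrays than on the control arrays, which was also so for 62.1% of all probe sets.

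**Figure D2:**
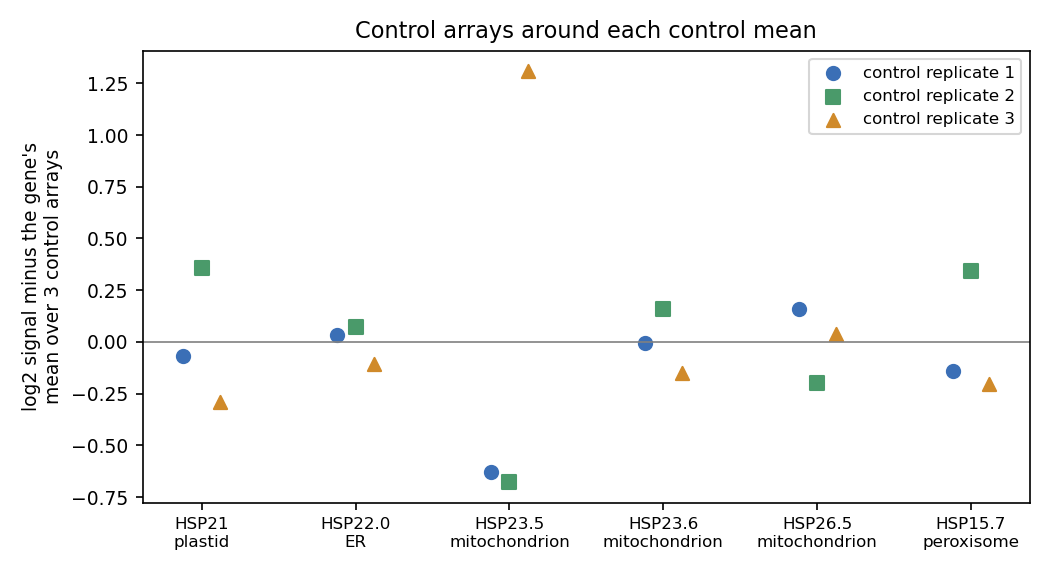
Deviation of each control array from the control mean of the same gene, on the log2 scale, for the 6 organelle small heat shock proteins. HSP23.5 on control replicate 3 lies 1.31 above its mean, and no other gene deviates by more than 0.36.

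The raised HSP23.5 value on control replicate 3 was set beside the rest of that array. Control replicate 3 stood at least 1 above both other controls in 64 probe sets, against 86 for control replicate 1 and 136 for control replicate 2. A value at least 1.94 above both other controls was seen in 11 probe sets on control replicate 3. The same count was 0 on control replicate 1 and 16 on control replicate 2. Of 86 probe sets that rose by at least 4 after heat, 2 had control replicate 3 at least 1 above both others. One was HSP23.5 and the other was a probe set that matched no locus, with 3.06, 2.82 and 4.18 on the control arrays. The other 5 organelle genes had no such value there, and 4 of them had their lowest control value on that array. Why HSP23.5 read higher on that array was not tested.

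Responses of different genes can be compared on the same arrays even though levels of different probe sets cannot. By the deposited values HSP26.5 rose most, followed by HSP15.7, HSP22.0, HSP23.6, HSP21 and HSP23.5. This order rests on control values that cannot be told from background. With values under log2 4 set to 4 it became HSP23.6 at 6.49, HSP26.5 at 6.38, HSP15.7 and HSP22.0 both at 6.29, HSP23.5 at 6.14 and HSP21 at 5.86. Apart from HSP23.5, that floored order is the order of heat levels alone and not of responses.

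Among the 15 pairs, 8 differed in a limma fit of the gap between each probe set and one gene of the pair, a fit in which 99.8% (reference gene HSP23.5), 99.9% (HSP21, HSP22.0 or HSP23.6) or 100% (HSP26.5) of all probe sets differed from that gene. That fit is called lenient here for its adjustment, which over all probe sets removes little when nearly all of them differ. Every gap also contains the noise of the reference gene. With the other gene of each pair as reference the same 8 pairs passed, but the p-values changed. For HSP23.5 minus HSP21 the limma adjusted p was 0.00053 with HSP21 as reference and 0.0494 with HSP23.5. Calls under other settings are given for 1 choice of reference only, so those close to the threshold may depend on it. The SE of the lenient fit was not always the smaller one. It was 0.28 against 0.09 from the pair's own spread for HSP15.7 minus HSP21, and 0.36 against 0.82 for HSP23.5 minus HSP21. With each pair's own spread in limma without moderation, an estimate added after the data were seen, 0 of 15 pairs passed after Benjamini-Hochberg adjustment over the 15, and 2 had an unadjusted p under 0.05. The smallest adjusted p of that limma estimate was 0.209. An exact permutation test of 3 against 3 arrays, two-sided, cannot give a p below 0.1, and 10 of the 15 pairs reached it.

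The pairs with an unadjusted 95% interval that excluded 0 both held HSP26.5. Its response minus that of HSP22.0 was 0.47 (interval from the pair's own spread 0.07 to 0.87), and minus that of HSP23.5, its fellow mitochondrial gene, 2.0 (0.21 to 3.78). With values under log2 4 set to 4, these gaps shrank to 0.09 and 0.23 and did not pass the lenient fit (limma adjusted p = 0.145 and 0.627). The first also missed the lenient fit without heat replicate 2 (0.43, limma adjusted p = 0.0505), and the second was 1.36 without control replicate 3.

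HSP26.5 minus HSP23.6, another mitochondrial gene, was 0.50 (-0.004 to 1.01), which passed the lenient fit but not without heat replicate 1 or 2 (limma adjusted p = 0.0537 and 0.0664), and turned to -0.11 with the floor. HSP26.5 minus HSP21 was 0.67 (-0.11 to 1.46). It passed the lenient fit, but not without control replicate 2, where it was 0.40, or without any 1 of the heat arrays (limma adjusted p = 0.0567 to 0.0861). HSP15.7 minus HSP26.5 was -0.43 (-1.21 to 0.34) and did not pass. It was -0.16 without control replicate 2, and passed the lenient fit without control replicate 1 (-0.58, limma adjusted p = 0.0214) or 3 (-0.55, limma adjusted p = 0.0353).

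The other 4 pairs with HSP23.5 had gaps of 1.32 to 1.56 in size, with HSP23.5 the lower each time, and passed the lenient fit. Their own intervals all included 0, being -3.59 to 0.94 for HSP23.5 minus HSP21, -3.50 to 0.45 for HSP23.5 minus HSP22.0, -0.55 to 3.54 for HSP23.6 minus HSP23.5 and -0.59 to 3.72 for HSP15.7 minus HSP23.5. The size of these gaps depended on control replicate 3, but of the calls only the one against HSP21 ended without it. Without it, HSP23.5 minus HSP21 was -0.52 and did not pass (limma adjusted p = 0.0882), HSP23.5 minus HSP22.0 was -0.82, HSP23.6 minus HSP23.5 was 0.76 and HSP15.7 minus HSP23.5 was 0.81. The calls against HSP23.6 and HSP15.7 ended without any 1 of the heat arrays (limma adjusted p = 0.0573 to 0.0965), and that against HSP22.0 without heat replicate 2 or 3 (0.0502 and 0.0612). With the floor none of these 4 gaps passed (limma adjusted p = 0.28 to 0.759).

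The gaps among HSP22.0, HSP23.6 and HSP15.7, which belong to different compartments, were small by the deposited values. HSP23.6 minus HSP22.0 was -0.03 (interval from the pair's own spread -0.16 to 0.09), HSP15.7 minus HSP22.0 was 0.04 (-0.35 to 0.42) and HSP15.7 minus HSP23.6 was 0.07 (-0.21 to 0.35). HSP21 lay slightly under these 3, by 0.20 against HSP22.0 (-0.23 to 0.64), 0.17 against HSP23.6 (-0.15 to 0.50) and 0.24 against HSP15.7 (-0.01 to 0.49). None of these 6 gaps passed the lenient fit or the estimate from the pair's own spread with the deposited values.

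With values under log2 4 set to 4, 5 of these 6 gaps did pass the lenient fit. HSP21 was then lower than HSP22.0 by 0.43 (limma adjusted p = 0.00234), than HSP23.6 by 0.63 (5.8e-05) and than HSP15.7 by 0.43 (0.00264). HSP23.6 was higher than HSP22.0 by 0.20 (0.00123), and HSP15.7 minus HSP23.6 was -0.20 (0.00208). All control values of these 4 genes lie under that floor, so the floored gaps are the gaps between their heat values alone. The floor leaves these controls no spread, and the SE of HSP22.0 minus HSP21 went from 0.28 to 0.12. Levels of different probe sets cannot be compared, so these calls do not show which gene responded more.

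**Figure D3:**
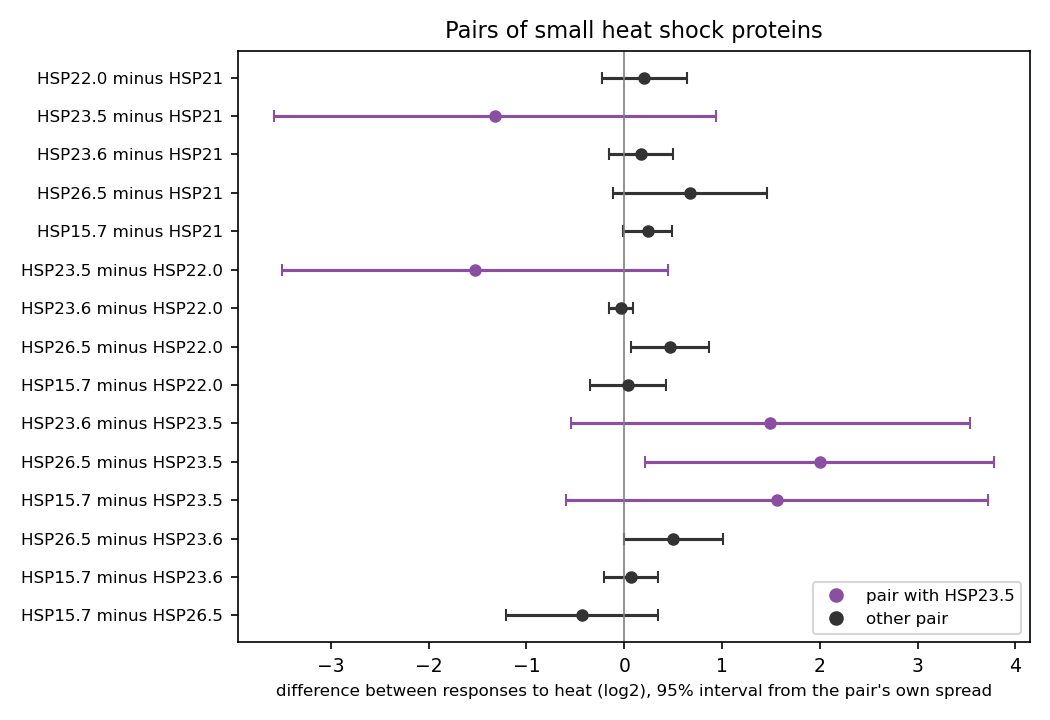
Difference between the responses of 2 organelle small heat shock proteins on the log2 scale for the 15 pairs, with the unadjusted 95% interval from each pair's own spread. Intervals of pairs with HSP23.5 are the widest, and only HSP26.5 minus HSP22.0 and HSP26.5 minus HSP23.5 exclude 0.

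Other chaperones and partners in each organelle were read from the same limma fit, as lists of genes by compartment. The lists also hold genes that are not ATP-driven chaperones, such as BZIP28, CRT1A and PEX7, so their counts are not counts of refolding chaperones. In the plastid, 7 of 16 listed probe sets rose and 9 did not pass, with a median difference of 0.57. CLPB3, the plastid disaggregase, rose by 4.70 (SE 0.11) and HSA32, a protein that helps to keep acquired thermotolerance, by 4.66 (SE 0.24). HSA32 was placed in this list, and counted among its 7 rises, without a check of its compartment. FTSH6, a plastid protease that degrades HSP21 in Arabidopsis, was chosen after its values were seen. It rose from 1.96 to 2.82 (limma adjusted p = 0.0231), but this was lost when control replicate 1 or 3, or heat replicate 1 or 3, was left out (limma adjusted p = 0.0787 to 0.0928), when replicate number was a block (0.0914) and when labelled age was a covariate. The FTSH6 difference itself stayed between 0.74 and 0.99 when 1 array was left out. The age model has little power, since labelled age rises along with group. pTAC5, a plastid protein that binds HSP21 in Arabidopsis and was also chosen after its values were seen, had a control mean of 6.77 and a heat mean of 6.94 (limma adjusted p = 0.39).

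In the mitochondrion, home of HSP23.5, HSP23.6 and HSP26.5, 7 of 13 probe sets rose and 6 did not pass, with a median of 1.0. The HSP70 gene mtHSC70-2 rose by 5.09 (SE 0.23) and the disaggregase CLPB4 by 4.96 (SE 0.14). MGE2, a nucleotide exchange factor for mitochondrial HSP70, rose by 4.17 (SE 0.23) and the protease FTSH4 by 2.61 (SE 0.14), both chosen after their values were seen. The other HSP70 gene, mtHSC70-1, had a control mean of 6.92 and a heat mean of 6.39 (limma adjusted p = 0.215). Without control replicate 2 its difference was -0.75 and passed (limma adjusted p = 0.0207).

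In the endoplasmic reticulum, where HSP22.0 acts, 3 of 14 probe sets rose, 1 fell and 10 did not pass, with a median of 0.07. ERDJ3A, a J-domain co-chaperone, rose by 6.59 (SE 0.12), from 1.93 to 8.52. BZIP28, a membrane-bound transcription factor of the unfolded protein response, rose by 1.48 (SE 0.21, limma adjusted p = 0.00667), a call that ended with values floored at log2 4 (0.15) or with the labelled age (0.321). Because labelled age rises along with group, the age model has little power for any gene of this list. BIP1 and BIP2, the abundant lumenal HSP70s, share a probe set, picked here with its values known. It rose by 1.0 (SE 0.18, limma adjusted p = 0.0169), and by 0.86 to 1.17 when 1 array was left out. The rise no longer passed when control replicate 3 or any 1 of the heat arrays was left out (limma adjusted p = 0.0541 to 0.0776), with replicate block (0.0734), with the floor (0.215) and with labelled age (0.582). CRT1A, a calcium-binding lectin chaperone, fell by 0.81 (SE 0.15, limma adjusted p = 0.0196), which likewise failed when control replicate 1 or 3, or heat replicate 1 or 3, was left out (0.0504 to 0.0829), with replicate block (0.0544), with the floor (0.192) and with labelled age. The CRT1A difference itself stayed between -0.94 and -0.69 when 1 array was left out.

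In the peroxisome, the compartment of HSP15.7, 0 of 12 probe sets for proteases, import factors and enzymes passed the limma test, and 2 had an unadjusted p under 0.05. The median was -0.01 and the differences ran from -0.18 to 0.61. ACD31.2, the other peroxisomal alpha-crystallin domain protein known in Arabidopsis, stood at 6.93 in controls and 7.37 after heat (difference 0.45, limma adjusted p = 0.168). The import receptor PEX7, chosen after its values were seen, gave the 0.61, from 5.22 to 5.83 (limma adjusted p = 0.15). It did pass under quantile normalization (0.0395), under cyclic loess (0.0347) or when control replicate 3 was left out (0.0364). Among the 55 probe sets of the 4 organelle lists together, 17 rose.

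**Figure D4:**
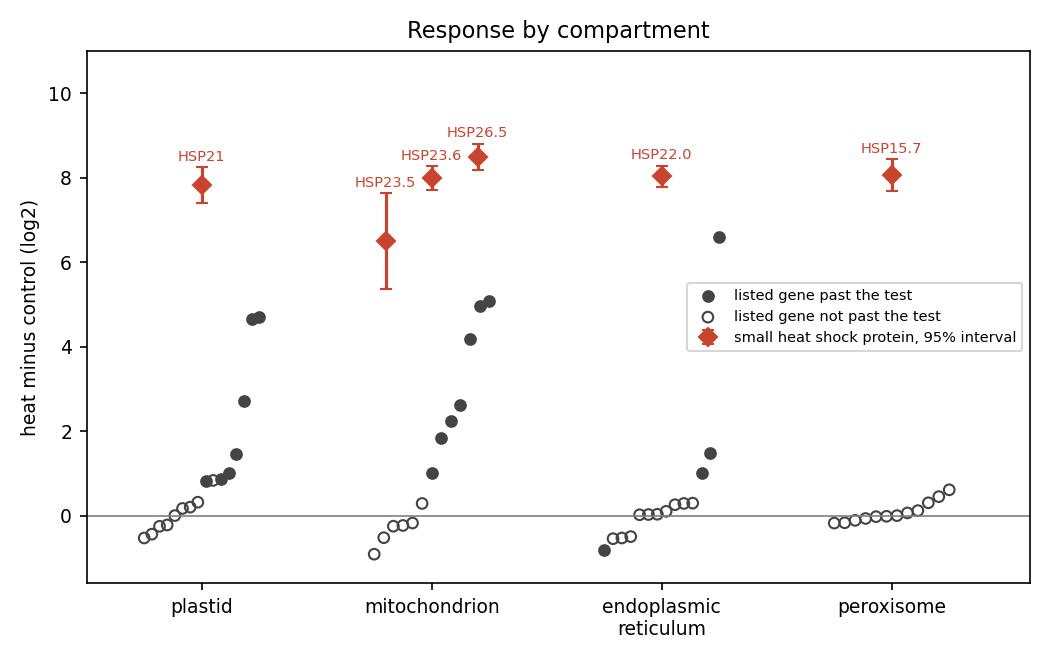
Log2 difference, heat minus control, by compartment: diamonds are the organelle small heat shock proteins with the limma 95% interval, and circles are the other listed probe sets of that compartment, filled where they passed the test. Each small heat shock protein lies above every circle of its compartment, and among the circles the highest is ERDJ3A at 6.59 in the endoplasmic reticulum, while in the peroxisome no circle is filled.

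Cytosolic small heat shock proteins are the nearest relatives of the 6 genes. Of their 12 probe sets 9 rose and 3 did not pass, and their median of 8.09 lay beside the 8.01 of the organelle genes. The extremes went further in the cytosol, with 9.41 (SE 0.15) for HSP17.6A-CI and HSP17.8, which share a probe set, and 9.08 (SE 0.11) for HSP17.6A. HSP18.5, picked with its values known, rose by 4.39 (SE 0.13), less than any organelle gene. HSP14.7, HSP15.4 and HSP21.7, named because they are the 3 that did not pass, had differences of 0.11, -0.47 and 0.19. Over all single-locus probe sets outside the 6 genes, 24 rose at least as much as HSP23.5.

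Regulators of the heat response rose in 12 of 14 cases, with a median of 4.06. HSFA2, a heat-induced heat shock factor that activates small heat shock protein genes, rose by 7.64 (SE 0.27), and the coactivator MBF1C by 7.37 (SE 0.32). Of the constitutive HSFA1 factors that start the response, HSFA1A and HSFA1B were the 2 that did not pass. HSFA1A went from 2.11 to 2.02 (limma adjusted p = 0.763) and HSFA1B, picked with its values known, from 2.93 to 2.72 (limma adjusted p = 0.409). HSFA1D rose by 0.78 (SE 0.17, limma adjusted p = 0.0407) and HSFA1E by 0.83 (SE 0.13, limma adjusted p = 0.0116), both picked with their values known. Neither passed with labelled age in the model (0.687 and 0.204), which has little power because labelled age rises along with group. HSFA1D failed when control replicate 1 or 3, or heat replicate 1 or 2, was left out (0.0705 to 0.144) and with replicate block (0.113), and HSFA1E when heat replicate 1 or 2 was left out (0.0575 and 0.0606). With 1 array left out, the differences themselves stayed at 0.66 to 0.93 for HSFA1D and 0.73 to 0.92 for HSFA1E. The small HSFA1A difference turned to 0.02 when arrays were centred on their medians. Of 7 reference genes, 0 passed the limma test and 3 had an unadjusted p under 0.05. Their median was -0.25, and ACT2 itself differed by -0.25 (limma adjusted p = 0.299).

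Genes whose pattern over the 6 arrays was most like that of the organelle genes were ranked by the root mean square gap between log2 values centred on each probe set's own mean, over 20476 single-locus probe sets. The nearest to the mean pattern of the 6 genes was AT2G29500, the cytosolic HSP17.6B, at 0.104. It was followed by Hsp70b (AT1G16030) at 0.161, AT5G59720 (HSP18.1 in the list above, HSP18.2 in the reference) at 0.168, AT1G54050 (HSP17.4B) at 0.218 and HSP70T-2 (AT2G32120) at 0.253. These 5 are cytosolic or nuclear chaperone genes that rose by 7.64 to 8.23. The values were centred but not scaled, so this gap largely reflects the size of the rise.

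Single organelle genes had neighbours of their own. HSP22.0 and HSP23.6 were both nearest to AT5G59720, with gaps of 0.0886 and 0.109. HSP21 was nearest to HSFA2 at 0.180, which like HSP21 had its highest control on replicate 2, with 2.23, 3.08 and 1.95. Control values this low cannot be told from background, and a common cause of that order was not tested. HSP26.5 was nearest to AT1G53540 (HSP17.6C) at 0.186 and HSP15.7 to AT1G54050 at 0.180. HSP23.5 had no near match, its closest being GolS1, a galactinol synthase that makes a precursor of raffinose sugars, at 0.511. GolS1 also read highest on control replicate 3, with 3.06, 2.51 and 3.64.

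The same measure set each organelle gene against the mean of the other 5. The gap was 0.180 for HSP22.0, 0.186 for HSP23.6, 0.263 for HSP21, 0.272 for HSP15.7 and 0.442 for HSP26.5. It was 1.08 for HSP23.5, which stood farthest from the rest and also had the smallest rise by the deposited values.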

How the data were processed

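The authors deposited log2 values of 22810 probe sets on 6 arrays. RMA, which corrects background, equalizes arrays and summarizes probes, was used per the submitters' processing notes, with software and background step not given in the sources used here. A second deposited table held the same log2 values (largest gap 0) and the authors' linear ratio of each heat array over the control array of the same number. Its p-value columns were empty.

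The 64 control probe sets were left out. Genes were named through the authors' identifiers and a RefSeq gene table of TAIR10.1 (20482 of 20653 single-gene probe sets matched, 959 point to several genes and 1134 to none). The brightest single-locus probe set was used per gene, and a shared one only where no other existed. No coordinates are printed, because the build behind the annotation is unknown here.

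The limma package (3.58.1, under R 4.3.3) gave heat minus control through lmFit and eBayes (group only, two-sided, Benjamini-Hochberg over 22746 probe sets, threshold 0.05), after a test on simulated data. SEs are limma's moderated ones. Labels do not say that replicates came from separate plants. A p-value therefore reflects no more than the spread of these samples, possibly technical. Replicate numbers were not used as pairs, although the authors' ratios set same-numbered arrays against each other. The deviations of same-numbered arrays correlated negatively in 3 of 3 cases, and those of differently numbered arrays at -0.02 to 0.26. Whether the samples were paired cannot be told from this, because deviations from a mean of 3 arrays are tied to each other.

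The 6 genes and all lists were chosen with earlier results of these data known. The text names the 6 genes, up to 2 rises and 2 falls per list, a list's first gene where it did not pass, and the genes of nearest pattern. Others are said to be chosen after their values were seen. Planned descriptions of promoter motifs and protein sequences were not run, since no sequences were used here.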

Additional observations from a re-analysis of the deposited data

How the results depend on the processing

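The 6 genes kept their direction under every alternative run, and the one call lost was HSP23.5 with the labelled age as a covariate (5.13, limma adjusted p = 0.125), which left 5 genes called. Leaving out 1 array at a time gave 7.68 to 8.00 for HSP21, 7.97 to 8.07 for HSP22.0, 6.16 to 7.15 for HSP23.5, 7.92 to 8.07 for HSP23.6, 8.40 to 8.57 for HSP26.5 and 7.96 to 8.24 for HSP15.7. Counts over all probe sets moved more. With probe sets of mean under log2 5 left out, 287 were higher and 439 lower. With values under log2 4 set to 4, the counts were 200 and 76, and with the labelled age 129 and 10. Labelled age rises along with group, which leaves the age model little power. Leaving out 1 array gave 371 to 1008 higher and 275 to 2719 lower, the upper values without control replicate 2. With the replicate number as a block, 6 of 6 genes passed, HSP23.5 at 6.50 (limma adjusted p = 0.00242), and 396 probe sets were higher and 410 lower. Whether replicate numbers pair the samples is not known. Of the 15 pairs, 2 to 9 passed the lenient fit when 1 array was left out and 0 with each pair's own variance, adjusted over the 15 (2 at an unadjusted p under 0.05), the one alternative chosen after seeing the data.

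Some gaps between responses turned sign. With values under log2 4 set to 4, HSP23.5 minus HSP21 went from -1.32 to 0.28 and no longer passed the lenient fit, HSP26.5 minus HSP23.6 went from 0.50 to -0.11 and passed both ways, and HSP23.6 minus HSP22.0 (0.20) and HSP15.7 minus HSP23.6 (-0.20) passed only with that floor. Leaving out 1 array gave -0.058 to 0.0087 for HSP23.6 minus HSP22.0 and -0.049 to 0.17 for HSP15.7 minus HSP22.0, which was -0.014 without control replicate 3. HSFA1A turned to 0.023 with arrays centred on their medians, and with the labelled age HSP14.7 turned to -0.057 and HSP15.4 to 0.25. Where all control values of both genes lie under the floor, the floored gap is a gap between heat levels alone. The cause of these turns was not tested. Averaging all probe sets of a locus left the 6 genes as they were, since each has 1. The number of arrays, 3 per group, limits the precision of every value, and the lack of detection calls limits what the low control values can show.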

Other observations

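Genes next to the 6 organelle small heat shock protein genes, by the order of protein-coding genes in TAIR10.1, were read from the same limma fit. Of 12 neighbours 9 had a probe set, and 2 of the 9 rose, beside 2.34% of all probe sets. Both are named after their values were seen. AT4G27680, which follows HSP21, rose by 1.69 (SE 0.17, limma adjusted p = 0.00116), but not with values floored at log2 4 (0.06) or with labelled age in the model (0.21). EYE (AT5G51430), a subunit of a Golgi tethering complex that precedes HSP23.5, rose by 1.3 (SE 0.11, limma adjusted p = 0.00035), which did not pass with labelled age in the model (0.152). The age model has little power for either gene, since labelled age rises along with group. Differences of the other 7 neighbours lay between -0.33 and 0.23, and none passed.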
